A study of Mus musculus with 4 samples.

Results

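The genes described here encode the beta subunits of the sodium pump (Na,K-ATPase), Atp1b1, Atp1b2 and Atp1b3. They were taken as every probe of the scanner table annotated to 1 of these 3 symbols. Each of the 3 genes had 1 probe, so 3 of the 45259 probes and 3 of the 10044 named genes tested are concerned. The set was chosen from earlier results of the same contrast, that is, with the measured Bmi1 against control differences in view. The difference between the groups is therefore given for the members as a description, without a test.

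The sodium pump uses ATP to carry sodium out of the cell and potassium in, and the gradient it builds drives the uptake of neurotransmitters, amino acids and ions. Its catalytic alpha subunit needs a glycosylated beta subunit to fold and to reach the plasma membrane, and small FXYD proteins tune its kinetics. The beta subunits also hold neighbouring cells together, and the product of Atp1b2 was first known as the adhesion molecule on glia (AMOG). In the brain Atp1b2 is mainly a gene of glia, above all of astrocytes, while Atp1b1 is strong in neurons and many epithelia and Atp1b3 is found in many tissues. The alpha subunits are not analysed here.

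Gene expression in stem and progenitor cells of the mouse neocortex (NSPC) was measured with Illumina bead arrays after the cells had grown as floating neurospheres with EGF and FGF2. The 2 arrays labelled Bmi1 came from cells of a conditional Cre/LoxP transgenic mouse overexpressing Bmi1, a polycomb protein, and the 2 arrays labelled control from transgenic control cells. Both groups were on the C57BL/6 strain and in the same medium, and the sources used here do not give the age of the animals, the promoter or the Cre driver. Each group held 2 labelled replicates. The labels do not say that they came from separate animals or cultures, so p-values measure only the spread between these samples. Both Bmi1 arrays carry 1 sample code in the scanner table, and "first" and "second" refer to its column order only.

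Between 16495 and 18242 probes were detected per array. The Spearman correlation across probes was 0.889 between the Bmi1 arrays and 0.899 between the control arrays, against 0.880 to 0.898 for arrays of different groups. Control array 1 stood apart in sex-linked transcripts, with Xist signals of 115 to 971 over 4 probes against at most 8.4 on the other 3 arrays. The brighter probe of the Y-linked Eif2s3y was at -1.8 on control array 1 and at 205 to 240 on the other 3. The control samples thus differed in sex and came from different animals, while these transcripts do not tell the Bmi1 samples apart. Bmi1 itself differed by 0.24 (log2, SE 0.29, limma adjusted p = 0.667), with signals of 53.3 and 77.7 on the Bmi1 arrays and 79.4 and 62.7 on the control arrays, and so did not check the labels. Of 10 stem cell and radial glia markers 8 were tested, Sox2, nestin and vimentin among them, while Pax6 was not detected on any array. The deposited processed table assigns the same 2 pairs of arrays to the opposite groups: its columns titled control matched the scanner arrays headed Bmi1, and the reverse. Which table is right is not settled by the sources used here. Every direction below follows the scanner headers and turns if the processed table is right.

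Atp1b2, the glial beta subunit, was the member with the widest gap between the groups. Its background-subtracted signal was 1489 and 1070 on the arrays labelled Bmi1, against 3538 and 3619 on the arrays labelled control. Both Bmi1 arrays lay far below both control arrays, and the control arrays were close to each other. The mean signal was 1279 ± 297 in the Bmi1 group and 3578 ± 57.3 in the control group (SD, n = 2 each), a ratio of 0.358. After normalization the log2 values were 10.57 and 10.30 on the Bmi1 arrays and 11.73 and 11.70 on the control arrays. The log2 difference was -1.28 (SE 0.20), which is 0.412 of the control level. The gap between the nearest arrays of the 2 groups, 1.13, exceeded the distance of 0.27 between the Bmi1 arrays and of 0.024 between the control arrays. In these bulk cultures fewer cells of a type and less RNA per cell cannot be told apart.

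Atp1b1, the widely expressed beta subunit, had the weakest separation. Its signal was 385 and 399 on the Bmi1 arrays, against 484 and 696 on the control arrays. On this scale the groups did not overlap, but the control arrays were farther from each other than control array 1 was from the Bmi1 arrays. After normalization they did overlap, with log2 values of 8.69 and 8.96 on the Bmi1 arrays and 8.85 and 9.34 on the control arrays. The log2 difference of -0.27 (SE 0.24) was close to its standard error. Leaving out control array 2 gave -0.025, and leaving out control array 1 gave -0.52. With the first Bmi1 array left out it was -0.14, and with the second left out -0.41.

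Atp1b3 lay on the opposite side from Atp1b2. Its signal was 1472 and 1592 on the Bmi1 arrays, against 1291 and 1288 on the control arrays. The groups did not overlap, and the ratio of the mean signals was 1.19. The log2 values were 10.56 and 10.84 on the Bmi1 arrays and 10.28 and 10.23 on the control arrays, a difference of 0.44 (SE 0.20). The nearest arrays of the groups were 0.28 apart, as far as the Bmi1 arrays were from each other (0.28). The difference was 0.25 with median scaling of the arrays, a setting that moved the median of all features to -0.20, and relative to that median it was again 0.44.

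**Figure D1:**
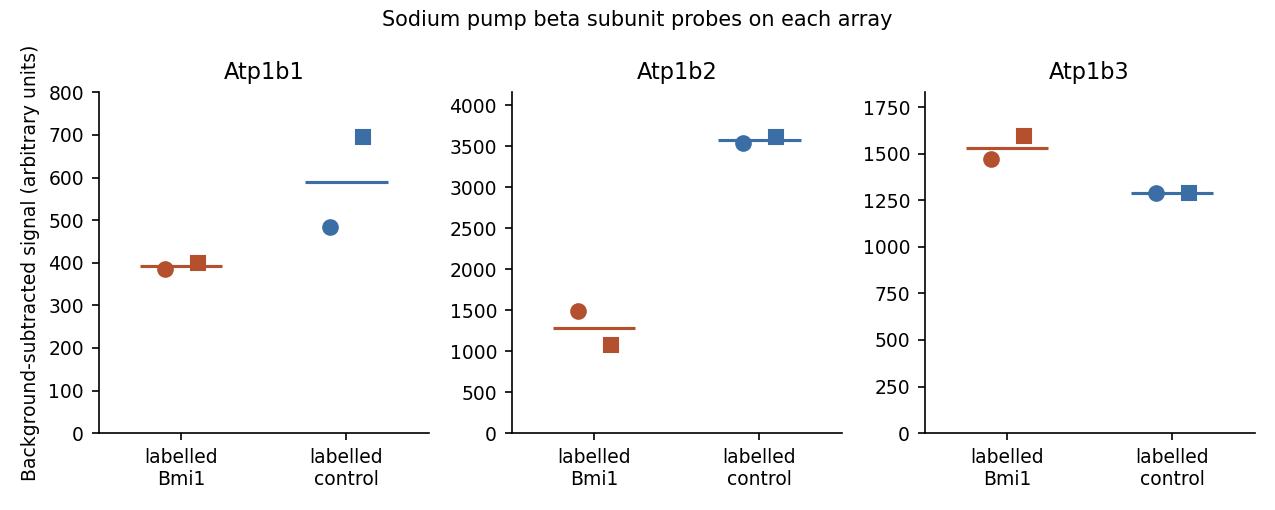
Background-subtracted signal (vertical axis, arbitrary units, starting at 0) of the probe of each beta subunit gene on the 2 arrays labelled Bmi1 and the 2 labelled control; a circle is the first array of a group, a square the second, and a line the group mean. The Bmi1 arrays sit at 1489 and 1070 for Atp1b2, against 3538 and 3619 for the controls, and at 1472 and 1592 for Atp1b3, against 1291 and 1288.

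All 3 probes were detected on all 4 arrays, so the filter on dim probes removed no member. Of the 3 members, 2 had groups that did not overlap on the log2 scale, 1 lower (Atp1b2) and 1 higher (Atp1b3) in the Bmi1 group. Among all 12809 features the groups did not overlap for 54.8%, 26.2% being lower and 28.6% higher. Since the members were chosen from this contrast, nothing is read from their count or from the size of their differences. The median difference of all features was 0.0089, with the 5th and 95th percentiles at -0.74 and 0.78.

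**Figure D2:**
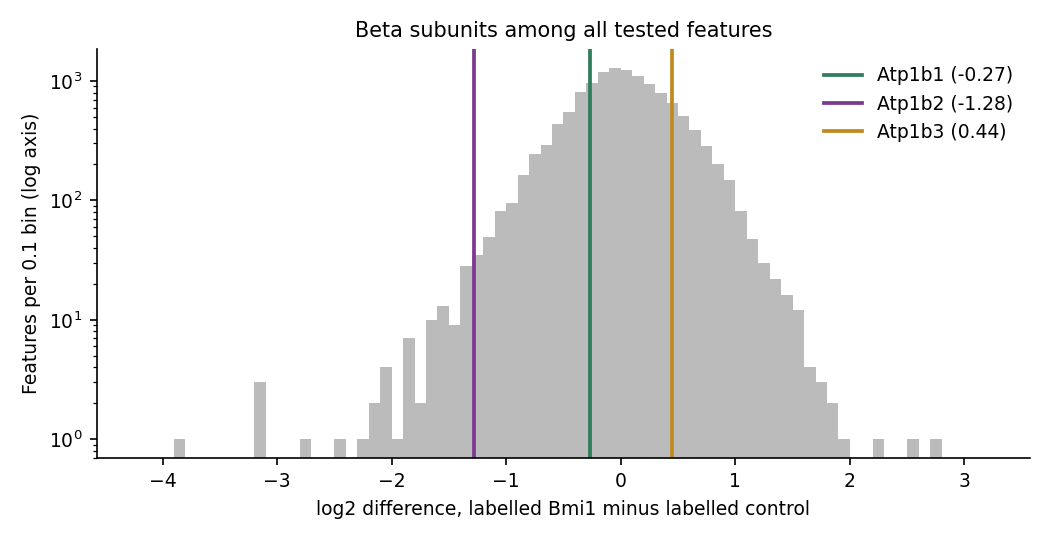
Number of features (vertical, log axis) by log2 difference, labelled Bmi1 minus labelled control (horizontal, bins of 0.1), with the beta subunits as vertical lines. The lines stand at -1.28 for Atp1b2, -0.27 for Atp1b1 and 0.44 for Atp1b3, and the median of all features is 0.0089.

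The processed table gave nearly the same spacing for the members. For Atp1b2 the columns matching the Bmi1 arrays held 10.58 and 10.31 and those matching the control arrays 11.72 and 11.70, on the authors' log2 scale. For Atp1b3 they held 10.56 and 10.84 on the Bmi1 side and 10.29 and 10.24 on the control side, and for Atp1b1 8.78 and 9.03 on the Bmi1 side and 8.93 and 9.39 on the control side. The columns on the Bmi1 side are titled control in that table. With its own group names the differences were 1.27 for Atp1b2, 0.26 for Atp1b1 and -0.43 for Atp1b3.

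The members did not move together over the arrays. Relative to its mean over the 4 arrays, Atp1b2 was at -0.50 and -0.78 on the Bmi1 arrays and at 0.65 and 0.63 on the control arrays. Atp1b3 was at 0.08 and 0.36 on the Bmi1 arrays and at -0.20 and -0.25 on the control arrays. The second Bmi1 array was thus the lowest of the 4 for Atp1b2 and the highest for Atp1b3. Atp1b1 followed neither, at -0.27 and 0.00051 on the Bmi1 arrays and -0.11 and 0.38 on the control arrays. Its lowest array was the first Bmi1 array and its highest control array 2.

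Marker lists of the cell types in neurospheres also differed between the arrays. Of 15 astrocyte markers tested, 13 were lower in the Bmi1 group, with a median log2 difference of -0.36, and Atp1b2 went the same way. The 2 higher ones were Sox9 at 0.36, with overlapping groups, and Slc1a3, the brightest of the list, at 0.33. This list therefore did not move as a whole. Mlc1, a lower one, passed the filter on dim probes only through the control arrays. At an unadjusted p under 0.05 with limma 6 of the 15 astrocyte markers were lower and 0 higher, and 0 passed after adjustment. Among all features 22.0% had an unadjusted p under 0.05, 9.76% lower and 12.2% higher in the Bmi1 group, and 0% passed after adjustment. Gfap, the astrocyte filament protein, was at -2.74 (SE 0.63, adjusted p = 0.133), with another probe at -1.003, and was -1.67 without the second Bmi1 array. The summed signal of the 16 astrocyte markers with a probe was 43699 and 38915 on the Bmi1 arrays and 43625 and 50727 on the control arrays, and S100b was not detected on any array. Of 12 oligodendrocyte lineage markers tested, 9 were lower, with a median of -0.82, and 6 of them had an unadjusted p under 0.05. The 3 higher ones were Cspg4 at 0.46, Pdgfra at 0.24 and Olig1 at 0.091, so the list did not move as a whole. Myelin basic protein (Mbp) was at -3.84 (SE 0.77, adjusted p = 0.133), with other probes at -0.25 and -1.23. Its signal was uneven among the controls, 2873 on array 1 and 516 on array 2. Set against the former alone the Mbp difference was -5.10, and against the latter alone -2.58. The summed oligodendrocyte signal was 24099 and 18329 on the Bmi1 arrays and 41102 and 25924 on the control arrays, with Mog and Mobp not detected on any array. Their part in the Atp1b2 difference was not tested.

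The oligodendrocyte list and the cell division list set control array 1 and the second Bmi1 array apart. The oligodendrocyte median, relative to each gene's mean, was -0.16 and -0.70 on the Bmi1 arrays and 0.84 and 0.06 on the control arrays. The cell division median (12 genes, 11 of them higher in the Bmi1 group) was -0.06 and 0.61 on the Bmi1 arrays and -0.65 and 0.0046 on the control arrays. Among all features 49.1% were lower. Of the 12 genes 4 were higher at an unadjusted p under 0.05 with limma, against 12.2% of all features. Groups did not overlap for 5 of them, all higher, against 28.6% of all features. Atp1b2 was at nearly the same level on both control arrays, and leaving out control array 1 or control array 2 gave -1.27 or -1.29. The part of cell division in the Atp1b2 difference was not tested either. The astrocyte median was -0.31 and -0.03 on the Bmi1 arrays and 0.31 and 0.12 on the control arrays. Neuronal markers had 8 of 15 genes tested, 4 lower and 4 higher, with a median difference of -0.013 and a range of -1.31 to 0.36. At an unadjusted p under 0.05 with limma 2 of them were lower and 0 higher, against 9.76% and 12.2% of all features. The stem cell list had a median difference of -0.023, with 5 of 8 tested lower, and 1 gene, a higher one, at that threshold. Markers of other cell types were mostly undetected: 2 of 8 microglial, 0 of 5 endothelial, 0 of 6 fibroblast and mural cell and 2 of 4 ependymal markers could be tested, with summed signals of at most 40.5 on any array for each list.

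**Figure D3:**
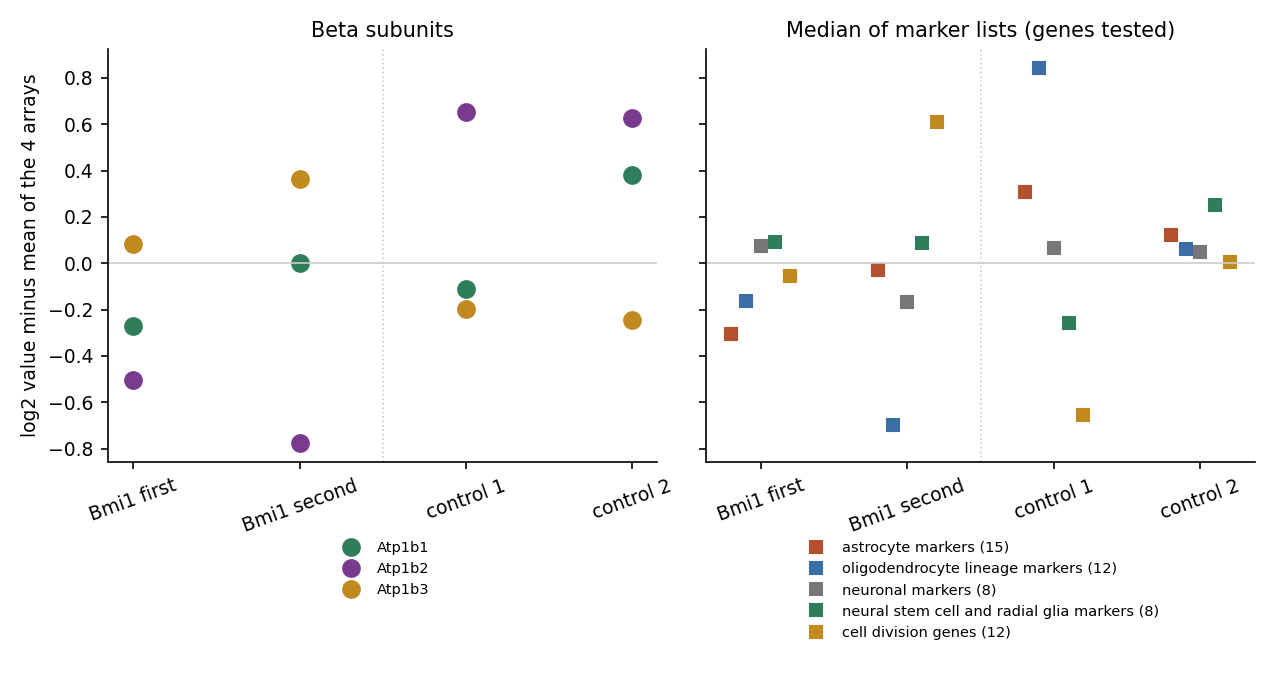
Log2 value minus the mean of the 4 arrays (vertical axis) on each array (horizontal axis), for the 3 beta subunits (left panel) and for the median gene of 5 marker lists (right panel; genes tested in brackets). Atp1b2 sits at -0.50 and -0.78 on the Bmi1 arrays and at 0.65 and 0.63 on the controls, while the oligodendrocyte median is at 0.84 on control array 1 and at 0.06 on control array 2.

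The FXYD proteins, which bind the pump and set its affinity for ions, did not show the pattern of Atp1b2. All 7 genes had a probe, and Fxyd1, Fxyd3 and Fxyd4 were not detected on any array, while Fxyd7 was detected on 1. Of the 3 tested, all had higher values in the Bmi1 group and 0 passed after adjustment, while 49.1% of all features were lower. Fxyd5 passed the filter on dim probes only through the Bmi1 arrays, so the filter largely set its direction. Fxyd6, a brain member of the family, was bright, with signals of 5877 and 4373 on the Bmi1 arrays and 4083 and 4779 on the control arrays, and these overlapped, while its log2 values (12.49 and 12.22 on the Bmi1 arrays, 11.96 and 12.14 on the control arrays) did not. Its log2 difference was 0.31 (SE 0.21, adjusted p = 0.430), and 0.17 without the first Bmi1 array. Fxyd5, also called dysadherin, was dim, with signals of 13.8 and 20.2 on the Bmi1 arrays and 7.1 and 4.2 on the control arrays, where it was not detected. It was at least 1.49-fold higher in the Bmi1 group, the normalized mean of the Bmi1 arrays being set against the detection floor or the probe's own value on each control array (adjusted p = 0.168). This bound holds for the setting with all 4 arrays and an offset of 16. The fitted log2 difference of Fxyd5, 0.67, was 0.43 without the second Bmi1 array and 0.31 with an offset of 50. Fxyd2, the gamma subunit of the kidney pump, was detected on 1 array of each group, and its difference of 0.18 (SE 0.22, adjusted p = 0.671) turned to -0.011 without the first Bmi1 array.

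Among the subunits of the related gastric and colonic pumps only Atp4a, the catalytic subunit of the gastric proton pump, could be tested. It was dim but detected on all 4 arrays, with signals of 16.7 and 11.5 on the Bmi1 arrays and 21.3 and 20.9 on the control arrays. The difference of -0.16 (SE 0.20, adjusted p = 0.671) turned to 0.024 with median scaling over the detected probes. Atp1b4, the fourth gene of the beta family, which has lost its pump function in placental mammals, and Atp4b, the gastric beta subunit, were not detected on any array.

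Partners and regulators of the pump were mostly lower in the Bmi1 group, with 6 of 7 tested and a median of -0.36, and 0 of them passed after adjustment. Among all features 49.1% were lower, and some of the lower partners and regulators were dim or were also counted among the astrocyte markers. Mlc1, counted in both lists, passed the filter on dim probes only through the control arrays, so the filter largely set its direction. Sgk1, a kinase that raises pump number at the membrane, had signals of 1061 and 505 on the Bmi1 arrays and 2127 and 1248 on the control arrays. The groups did not overlap, and its log2 difference was -0.91 (SE 0.36, adjusted p = 0.202). It was -0.51 without control array 1, and -0.50 when the second Bmi1 array was left out. Nkain1, a membrane protein that binds the beta subunit, was at -0.60 (SE 0.38, adjusted p = 0.394), with overlapping groups, and it was -0.010 without the first Bmi1 array.

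Potassium and water channels of glia lay on both sides. Of 5 tested, 3 were higher and 2 lower in the Bmi1 group. Aqp4, the water channel of astrocyte endfeet, had signals of 334 and 182 on the Bmi1 arrays and 863 and 612 on the control arrays. Its difference was -1.21 (SE 0.27, adjusted p = 0.133), about the size of that of Atp1b2. The potassium channels Kcnk2 and Kcnj16 were higher by 0.63 (SE 0.21, adjusted p = 0.159) and 0.47 (SE 0.20, adjusted p = 0.224), and 0 of the 5 passed after adjustment. With median scaling both were smaller, Kcnk2 at 0.28 and Kcnj16 at 0.18. Relative to the median of all features, which that setting moved, Kcnk2 was at 0.48 and Kcnj16 at 0.38.

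Transporters driven by the sodium gradient had a median difference of -0.12, with 8 of 14 tested lower in the Bmi1 group. At an unadjusted p under 0.05 there were 3, all lower, against 22.0% of all features, and 0 passed after adjustment. Slc6a6, the taurine transporter, was at -0.83 (SE 0.25, adjusted p = 0.150), Slc38a3, a glutamine transporter of astrocytes, at -0.71 (SE 0.23, adjusted p = 0.158), and Slc1a4, which carries alanine and serine, at -0.65 (SE 0.19, adjusted p = 0.146). Without the second Bmi1 array Slc6a6 was at -0.51 and Slc38a3 at -0.47. Slc6a11, an astrocyte transporter of GABA, had the largest value at -0.87 (SE 0.57, adjusted p = 0.414), but its groups overlapped and it turned to 0.033 without control array 1.

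Other P-type ATPases, the wider enzyme family of the pump, were spread to both sides. Of 14 tested, 8 were higher and 6 lower, with a median of 0.17, 5 had an unadjusted p under 0.05 against 22.0% of all features, and 0 passed after adjustment. Atp13a1, a transporter of the endoplasmic reticulum, was at 1.25 (SE 0.20, adjusted p = 0.133) by its brighter probe, while its other probe was at -0.78. Atp9a, of the lipid flippase group, was at -0.87 (SE 0.33, adjusted p = 0.194), with another probe at -0.88, and was -0.37 without control array 1. Atp2a2, the calcium pump of the endoplasmic reticulum, was at -0.53 (SE 0.22, adjusted p = 0.217), with other probes at -0.35 and 0.64, and was -0.32 without control array 1. Atp10d was at 0.75 (SE 0.25, adjusted p = 0.164) and Atp2c1, the Golgi calcium and manganese pump, at 0.51 (SE 0.19, adjusted p = 0.192), with another probe at 0.58. Atp10d was detected on 1 of the control arrays and was 0.37 with an offset of 50 or no background correction and 0.45 without control array 1. Atp2c1 was 0.34 with no background correction. With median scaling it was 0.20, or 0.39 relative to the median of all features.

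**Figure D4:**
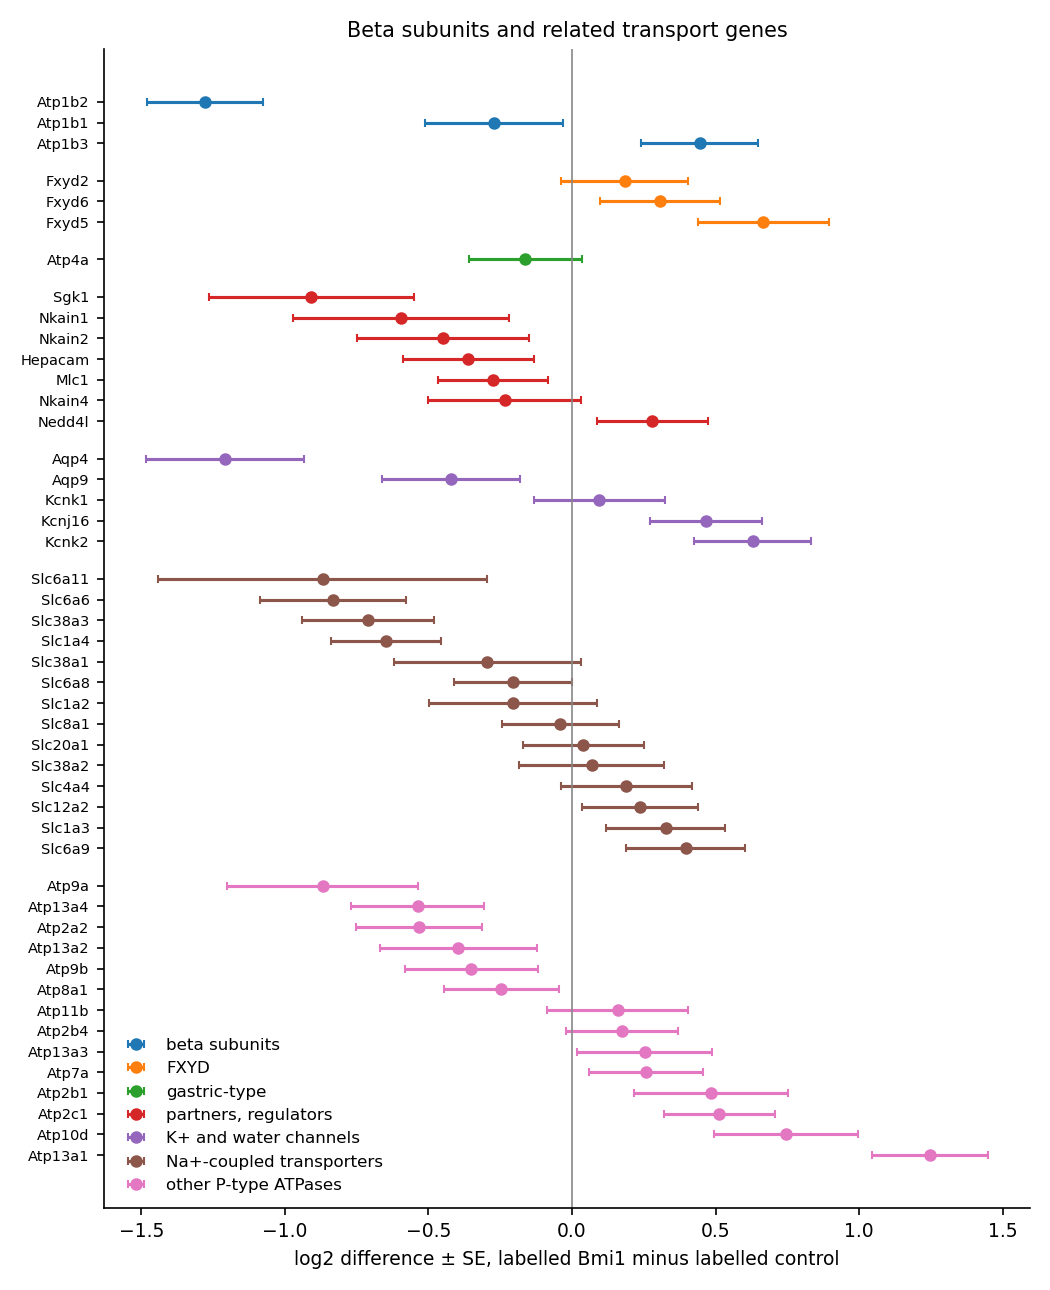
Log2 difference, labelled Bmi1 minus labelled control, with its SE (horizontal axis) for each tested gene (rows) of the beta subunits and 6 lists of related genes, coloured by list and ordered by value within it. Atp1b2 at -1.28 and Aqp4 at -1.21 lie farthest to the left, and Atp13a1 at 1.25 farthest to the right; Fxyd5 was not detected on the control arrays.

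Since Atp1b2 also acts in adhesion, neural adhesion molecules were examined beside it. Of 9 tested, 5 were lower and 4 higher, with a median of -0.22, and 0 passed after adjustment. Ncam1 was at -0.86 (SE 0.28, adjusted p = 0.159) by its brightest probe, with other probes at -0.53, 0.04 and 0.17, and was -0.56 without the second Bmi1 array. Nrcam was at -0.48 (SE 0.20, adjusted p = 0.224), with another probe at -0.18. With median scaling it was -0.78, or -0.58 relative to the median of all features. Cdh4, a cadherin, was at 0.51 (SE 0.30, adjusted p = 0.356), with another probe at -0.50, and was 0.082 without control array 1.

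The genes closest to each member over the 4 arrays were found by the distance between log2 values centred on their mean, among the 10043 other named genes. With 4 arrays many genes share a pattern, so this is a description only. For Atp1b2 they were Eif4ebp2, a repressor of translation, at a distance of 0.15 (Pearson r over 4 arrays 0.995), Tpgs1 at 0.15 (r 0.993), Lbh at 0.15 (r 0.997), Tmem259 at 0.19 (r 0.990) and Nkx2-2, a transcription factor of the oligodendrocyte lineage, at 0.19 (r 0.992). Like Atp1b2, these 5 had both Bmi1 arrays below both control arrays and their lowest level on the second Bmi1 array. Eif4ebp2 had log2 values of 9.10 and 8.62 on the Bmi1 arrays and 10.17 and 10.15 on the control arrays. The Nkx2-2 probe used had a difference of -1.16, while another probe of that gene was at -0.45. For Atp1b3 they were C1galt1c1, Gpr1, Tnks, Col2a1 and Mdm2, at distances of 0.020 to 0.033 (r 0.999 each). For Atp1b1 they were Lsm2, H2ax, St6galnac5, Fech and ND4L, at distances of 0.081 to 0.11 (r 0.972 to 0.986).

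Across the ways of processing that keep the scanner names, the members kept their order. The Atp1b2 difference ranged from -1.49 to -1.14 over 13 alternatives, that of Atp1b1 from -0.55 to -0.025 and that of Atp1b3 from 0.25 to 0.58. Atp1b2 was thus the lowest and Atp1b3 the highest in each of these alternatives. Changing the filter on dim probes or keeping every detected probe could not move these values, each member having 1 probe detected on every array. Array weights also left the values as they were, so the order in those settings was fixed in advance.

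**Figure D5:**
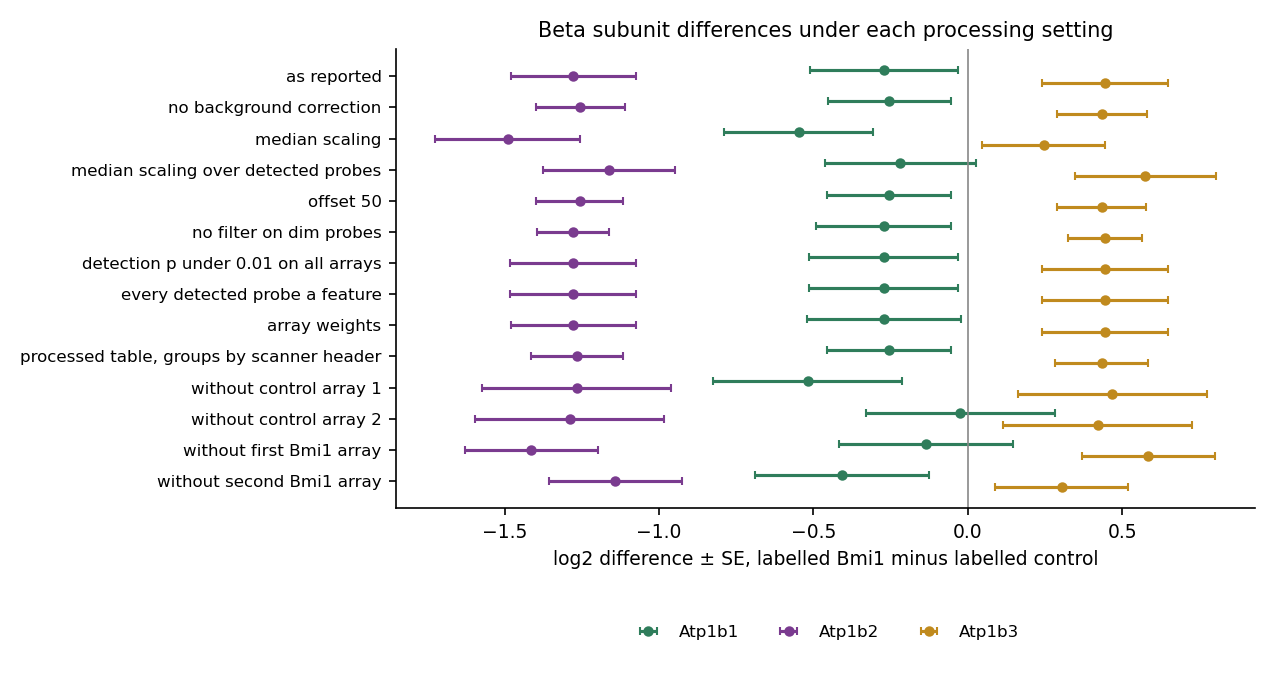
Log2 difference with its SE (horizontal axis) of each beta subunit under each processing setting (rows) that names the groups by the scanner headers, including each array left out in turn. Atp1b2 stays between -1.49 and -1.14, Atp1b1 between -0.55 and -0.025 and Atp1b3 between 0.25 and 0.58.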

How the data were processed

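The authors deposited a scanner table that holds, per the file headers, intensity and detection for each probe on each array. The deposited intensity values were already background-subtracted (31.2 to 33.9% at or below 0), and the deposited detection p-value column rises with the signal and was read as 1 minus p. The authors also deposited a processed table of log2 values with equal quantiles, with an unstated transform; lumi, of unstated version, is named per the submitters' processing notes. From the scanner data 22 entries without a probe identifier were left out.

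Signals were corrected and quantile-normalized with neqc of limma 3.58.1 (R 4.3.3; offset 16). Probes with a detection p under 0.05 on at least 2 arrays were kept (18237), and each gene took its brightest probe, giving 12809 features. Symbols come from the platform annotation, updated through gene identifiers: 34872 probes have 1 symbol, 18 several and 10369 none. Groups were compared with lmFit and eBayes, two-sided, with group as the only term and Benjamini-Hochberg adjustment over all features at 0.05. The fit was tested on simulated data. On the 4 arrays the smallest adjusted p was 0.133, so 0 features passed, and 2817 had an unadjusted p under 0.05. With 2 arrays per group their number limits the precision, and the scanner table names no batch.

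The members, the 18 lists and the alternatives were chosen with earlier results of these data known. In the transport and adhesion lists the text names each FXYD gene and, elsewhere, the 2 tested genes of largest difference and those with an unadjusted p under 0.05. Marker lists are given by counts, with Gfap, Mbp and the astrocyte and oligodendrocyte lineage markers of higher value named. Mlc1 is named for its detection in the control group only.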

Additional observations from a re-analysis of the deposited data

How the results depend on the processing

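The Atp1b1, Atp1b2 and Atp1b3 differences kept their direction in all 13 alternatives under the scanner names. Among these, the changes of filter and the use of every detected probe could not move the member differences, and array weights left them unchanged. Of the 23 other genes named by the stated rule, 20 kept their direction in each alternative that gave them a value. With the processed table and its own group names every direction turned: Atp1b1 0.26, Atp1b2 1.27, Atp1b3 -0.43, Fxyd2 -0.093, Fxyd5 -0.34, Fxyd6 -0.30, Atp4a 0.082, Nkain1 0.39, Sgk1 0.88, Slc1a4 0.62, Slc6a6 0.81, Slc6a11 0.79, Slc38a3 0.62, Kcnj16 -0.30, Kcnk2 -0.50, Aqp4 1.12, Atp2a2 0.51, Atp2c1 -0.36, Atp9a 0.69, Atp10d -0.39, Atp13a1 -1.17, Ncam1 0.82, Nrcam 0.44, Cdh4 -0.51, Gfap 2.47 and Mbp 3.38. That table names the groups the other way round. With the replicate number as a block in it these values stayed as they are, since the design is balanced. The block gave 2535 features at an unadjusted p under 0.05 against 2840 without it and 0 after adjustment. Deviations of same-numbered samples correlated at -0.20, which does not show whether the numbers mark pairs. A block with the numbers crossed, added after seeing the data, gave 3199 and 0. Leaving out 1 array gave 1067 to 3533 features at an unadjusted p under 0.05 (2817 with all 4), with 1067 when control array 1 and 1428 when the second Bmi1 array was left out, and 0 to 5 after adjustment (5 without control array 2, 1 without the first Bmi1 array); a lone array was taken to vary like the other group. Atp1b2 ranged from -1.41 to -1.14 in these, Atp1b1 from -0.52 to -0.025 and Atp1b3 from 0.30 to 0.58. With no array left out, median scaling changed the share of higher calls from 55.6% to 16.9%, with the median of all features at -0.20, and scaling over the detected probes, added after seeing the data, to 68.7% with the median at 0.13. Relative to the median of all features Atp1b2 was at -1.29, Atp1b1 at -0.35 and Atp1b3 at 0.44 under both. Of the other genes, Fxyd2 ranged from -0.011 (no first Bmi1 array) to 0.38 and Slc6a11 from -1.77 to 0.033 (no control array 1) with 1 array left out, and Atp4a was 0.024 with scaling over the detected probes; the cause was not tested. With an offset of 50 the dim Fxyd5 was at 0.31 and Atp10d at 0.37.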
